A study of Gossypium bickii with 18 samples.

Results

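Of 43790 gene IDs followed through germination in cotyledons of the Australian cotton Gossypium bickii, 49 (0.112%) stood at 30 FPKM or more in every one of the 15 libraries from 0 h to 48 h after imbibition while their highest value was at most 1.8 times their lowest. FPKM is fragments scaled to gene length and to the mapped fragments of the library, a level relative to the rest of the library. These 49 genes are called the stable abundant genes below. They were chosen from the 15 values themselves, so their evenness over time is how they were picked and is described without a test. They made up 6.27% of the 781 genes at 30 FPKM or more in all 15 libraries, and the other 732 of those genes are the set they are compared with.

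A dry seed carries stored mRNA, and water uptake (imbibition) restarts respiration, translation and transcription, so that many of the stored messages are replaced as the cotyledons change from storage organs into photosynthetic leaves. Transcripts that keep a steady share of the RNA through such a change are what expression studies look for as reference genes. Gossypium bickii is known for seeds without visible pigment glands whose glands appear in the cotyledons after germination. The deposited tables do not pair gene IDs with names, so the genes are given by ID and no function is assigned to any of them.

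The series held 18 libraries of cotyledon RNA in 6 groups of 3. They were 0 h (with no light condition in the labels), 12, 24, 36 and 48 h under light, and 24 h in the dark. No genotype, treatment agent or plant age beyond these hours is given, and the labels do not say whether replicates came from separate seeds or seed lots, so p-values measure only the spread between these samples. The time-course table gives its 24 h columns a time and a number but neither light nor dark, and they were taken as the 24 h light group because every other imbibed column there belongs to a light group. As a check, the deviation of each 24 h column from its group mean correlated across 21341 genes at 0.851 to 0.857 with the light column of the same number in the separate light-dark table, against -0.108 to 0.117 with the dark column. The light-dark table carries other values for those libraries, so levels were compared only within a table.

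Summed FPKM ran from 511842 to 617604 per library in the time course and from 709065 to 809660 in the light-dark table. In the light-dark table FPKM fell on steps of whole fragments, from which relative depths of 1 to 1.16 were read. All 49 genes came out as whole fragments there in all 6 libraries (within 0.02 of a whole number), at 492 to 7189 fragments per gene and library with a median of 1732. The time-course values showed no whole-fragment steps, and their depth is unknown. As this is bulk RNA from a whole organ, fewer cells of a type and less RNA per cell cannot be told apart.

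The stable abundant genes were of moderate level. Their mean over the 15 time-course libraries ran from 38.0 to 202 FPKM with a median of 51.2, and 23 of them averaged under 50 FPKM, 22 from 50 to 100 and 4 above 100. The ratio of highest to lowest value ran from 1.41 to 1.798 with a median of 1.66. Among the other 732 abundant genes it ran from 1.81 to 144 with a median of 3.61, and 300 of them (41.0%) varied by more than 4-fold.

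**Figure D1:**
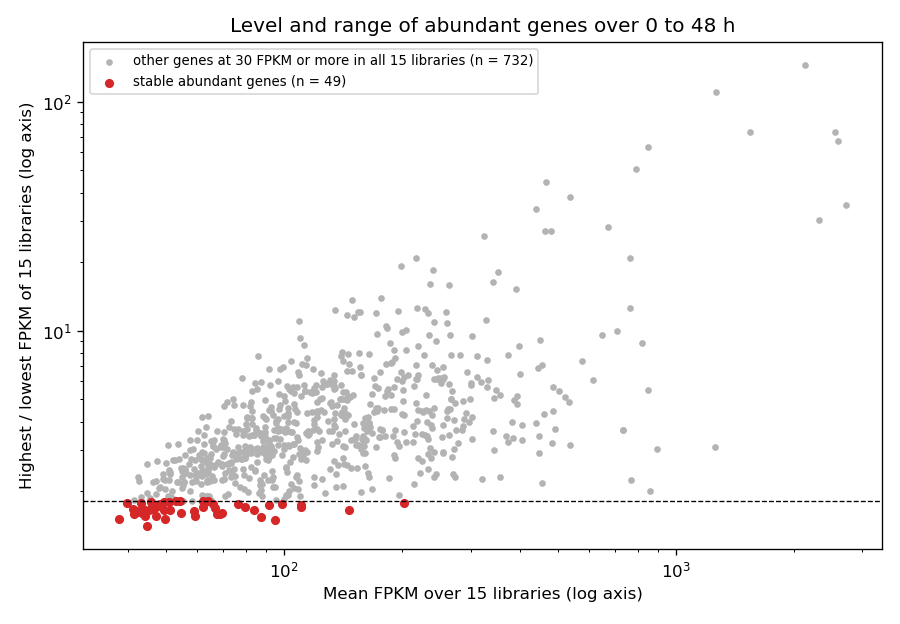
Each point is a gene at 30 FPKM or more in all 15 time-course libraries, by its mean FPKM (x, log axis) and its ratio of highest to lowest FPKM (y, log axis). The 49 stable abundant genes lie under the dashed line at 1.8 by the way they were chosen, with medians of 51.2 FPKM for the level and 1.66 for the ratio, against a median ratio of 3.61 in the other 732 genes.

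Gbi08G3009 had the highest level of the 49. Its values were 249, 243 and 211 FPKM at 0 h, 247, 210.5 and 225 at 12 h, 189, 202 and 192 at 24 h, 202, 193 and 164 at 36 h, and 145, 142 and 211 at 48 h. The means at 0 h and 12 h were the highest and 48 h replicates 1 and 2 the lowest, while 48 h replicate 3 overlapped the 0 h libraries. Next in level came Gbi07G1210 at a mean of 146 FPKM (107 to 176 over the 15 libraries), Gbi11G0661 at 111 (82.4 to 140.3) and Gbi11G0366 at 110.2 (76.8 to 133). Gbi06G2166 averaged 98.9 FPKM (72.4 to 127) and Gbi09G0359 94.8 FPKM (77.1 to 115). The lowest means were those of Gbi07G0802 at 38.0 FPKM, Gbi02G2173 at 39.6 FPKM and Gbi08G3110 at 41.2 FPKM.

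The narrowest range belonged to Gbi12G2221, whose highest value was 1.41 times its lowest. It stood at 50.2, 42.9 and 43.3 FPKM at 0 h, 36.7, 40.5 and 42.2 at 12 h, 41.6, 48.7 and 43.5 at 24 h, 40.0, 39.5 and 51.6 at 36 h, and 50.6, 51.1 and 46.6 at 48 h. The 12 h libraries were its lowest group by mean and did not overlap those of 48 h, its highest. Gbi09G0359 followed at a ratio of 1.49, with 80.1, 81.2 and 91.9 FPKM at 0 h, 97.0, 108 and 111 at 12 h, 115, 96.6 and 104 at 24 h, 100.5, 98.3 and 91.4 at 36 h, and 77.3, 77.1 and 92.8 at 48 h. It was highest at 12 and 24 h and lowest at 48 h and 0 h.

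The other 4 of the 6 narrowest were Gbi09G3126 (ratio 1.51), Gbi07G0802 (1.51), Gbi09G2303 (1.53) and Gbi06G0191 (1.54). Gbi07G0802 was the most even in its time means, at 39.4 ± 3.71 FPKM in the 0 h libraries, 38.0 ± 8.12 after 12 h, 39.1 ± 1.77 after 24 h, 38.5 ± 7.53 after 36 h and 34.8 ± 3.18 after 48 h (SD, n = 3 each). The highest mean was 1.13 times the lowest, and the libraries overlapped between every pair of times except 24 h and 48 h. Gbi09G2303 stood at 96.5, 110.1 and 95.3 FPKM at 0 h and near 83 FPKM in all 3 libraries at 48 h, while single libraries at 12, 24 and 36 h spread from 71.8 to 108 FPKM.

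**Figure D2:**
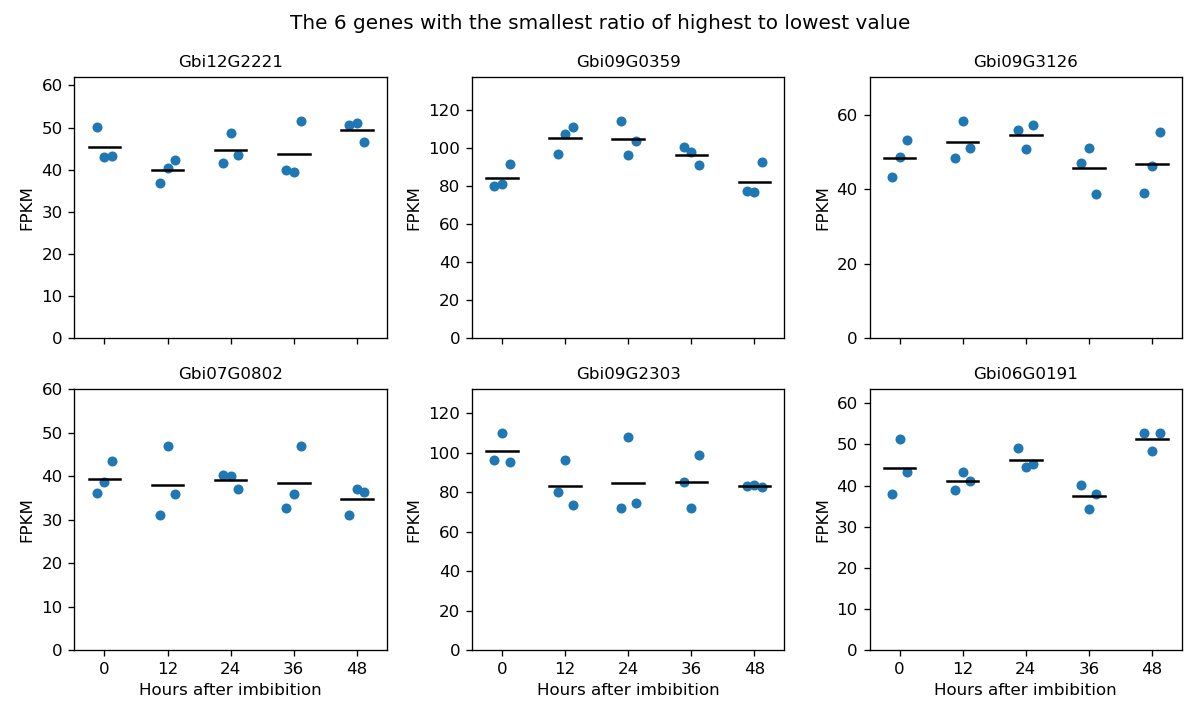
FPKM of the 6 stable abundant genes with the smallest ratio of highest to lowest value, against hours after imbibition. Points are the 3 libraries of a time and bars their mean; all axes start at 0, and Gbi12G2221 stays between 36.7 and 51.6 FPKM.

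The limits of 1.8 and 30 FPKM cut through a continuum. Just inside the ratio limit lay Gbi01G0380, Gbi08G1921, Gbi01G0348 and Gbi02G1177, at ratios of 1.79 to 1.798. Just outside it lay Gbi11G0157, Gbiscaffold_407G0005, Gbi01G0055 and Gbi11G4332, at 1.81 to 1.82. On the level limit, Gbi07G0802 reached down to 31.2 FPKM, Gbi02G2173 to 31.5 and Gbi02G0272 to 31.8, while Gbi11G2690, Gbi11G0592 and Gbi08G1843 kept within the ratio but had lowest values of 29.95, 29.9 and 29.8 FPKM. The number of genes selected followed these limits closely: a ratio limit of 1.6 left 13 and a limit of 2 gave 81.

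Within the narrow range allowed, the genes did not share a course. The mean was highest at 12 h in 15 genes, at 24 h in 12, at 48 h in 12, at 0 h in 7 and at 36 h in 3. It was lowest at 12 h in 14 genes, at 36 h in 13, at 48 h in 13 and at 0 h in 9, and in 0 of the 49 at 24 h. Between the time of highest and the time of lowest mean the 3 libraries did not overlap in 36 genes. These times were chosen from the same values, which makes such gaps likelier, so that count is a description. It was not made over the other abundant genes, so it cannot be called high or low. The means at the highest and lowest time differed by 1.13-fold to 1.64-fold, with a median of 1.36. On the log2 scale the SD of the time means had a median of 0.18 over the genes, and so did the SD between libraries of a time, with the first the larger in 29 genes.

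The 7 genes highest at 0 h included Gbi04G1534, with a mean of 82.5 ± 1.06 FPKM at 0 h (SD, n = 3) against 57.0 to 67.5 FPKM at the later times. Gbi01G0380 averaged 66.5 ± 4.71 FPKM at 0 h and 47.1 ± 10.1 FPKM at 48 h (SD, n = 3), where replicates 1 and 2 stood at 43.0 and 39.7 FPKM and replicate 3 at 58.6. Among the 15 genes highest at 12 h, Gbi02G1177 had 52.8, 52.2 and 49.1 FPKM at 0 h and 84.9, 72.1 and 85.7 at 12 h, then 67.0, 73.3 and 63.4 at 24 h, 63.2, 50.2 and 64.4 at 36 h and 47.7, 52.4 and 82.7 at 48 h. Its 12 h libraries lay above all of those at 0 h, and at 48 h replicate 3 alone was near the 12 h level. Gbi01G0348 and Gbi07G1761, also lowest at 0 h and highest at 12 h, had the most alike profiles of any pair (Pearson r = 0.872 over the 15 libraries, which they share).

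The 12 genes highest at 24 h included Gbi11G0661, with 92.4, 86.0 and 86.4 FPKM at 0 h, 131, 118 and 123 at 12 h, 140.3, 133 and 126 at 24 h, 119, 126 and 102 at 36 h and 85.8, 82.4 and 109.8 at 48 h. It was thus high in the middle of the course and low at both ends. The 12 genes highest at 48 h held the largest difference between time means, in Gbi11G0366. That gene stood at 111, 124 and 128 FPKM at 0 h, 76.8, 89.5 and 77.0 at 12 h, 105, 132 and 109 at 24 h, 100.4, 95.7 and 106 at 36 h, and 133, 132 and 133 at 48 h. Its 12 h libraries lay below those of every other time, and those of 48 h above all others. Only Gbi12G0104, Gbi09G3138 and Gbi03G2425 had their highest mean at 36 h, and in each of them the libraries of 36 h overlapped those of the lowest time, 12 h.

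**Figure D3:**
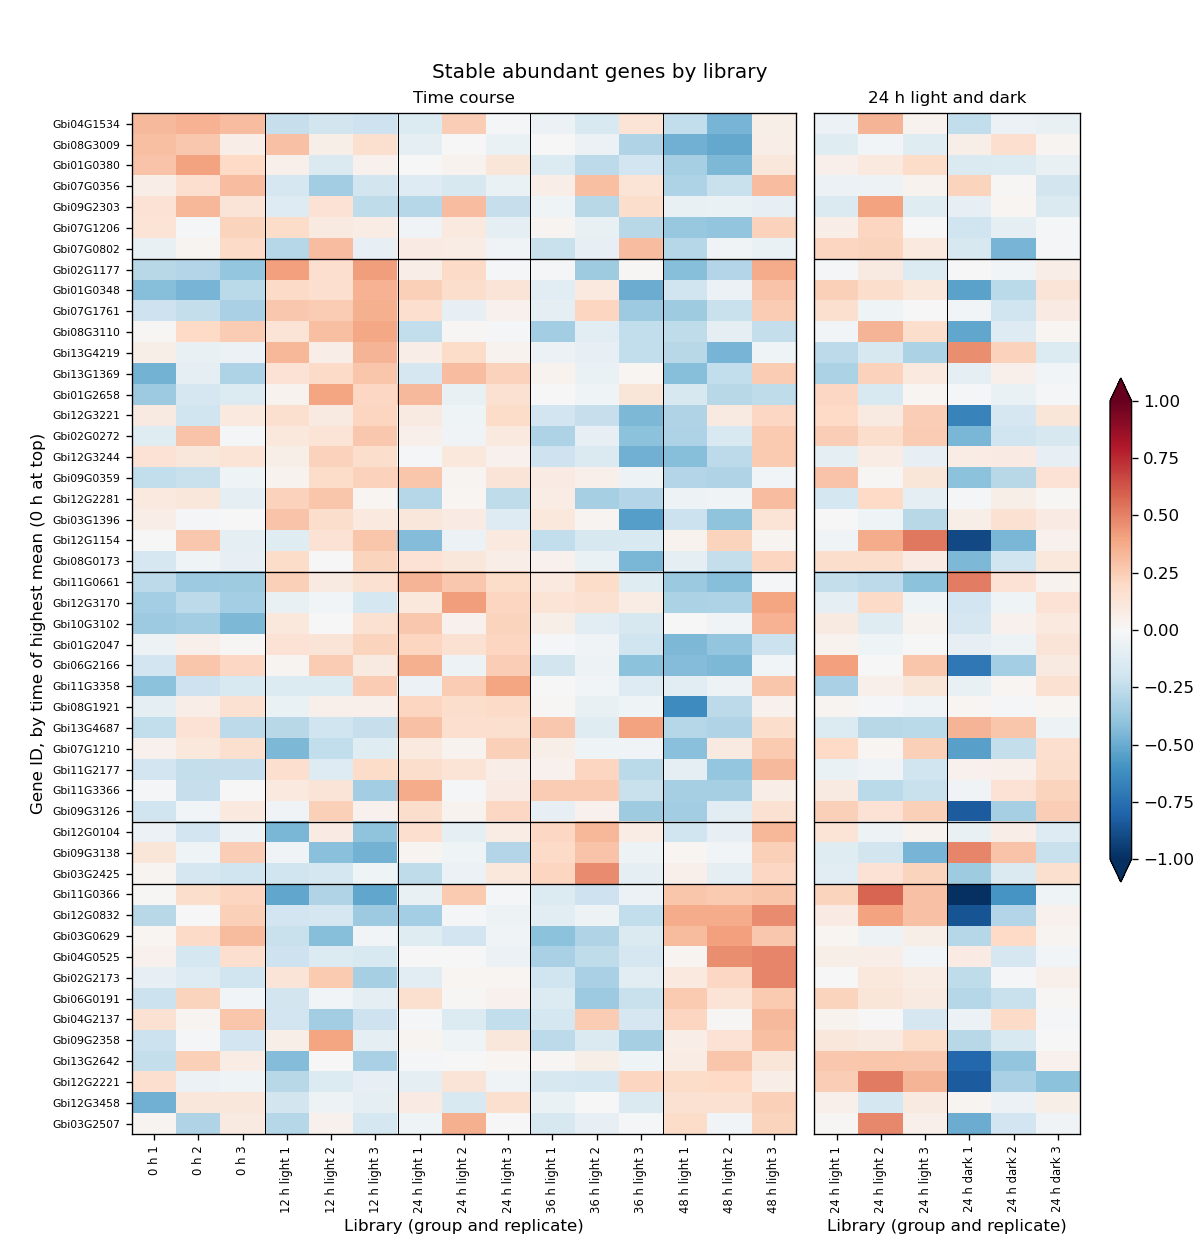
Each row is a stable abundant gene and each column a library, coloured by log2 of its FPKM over the gene's own mean in that table; the time course is at left and the light-dark table, light before dark, at right. Horizontal lines separate genes by the time of their highest mean, from 0 h at the top (7, 15, 12, 3 and 12 genes), and the deepest blue cell is Gbi11G0366 in dark replicate 1, at 54.2 FPKM.

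The extreme values fell in some libraries more often than in others, described here from the values that the rule used. The library at 48 h numbered replicate 3 held the highest of the 15 values in 12 of the 49 genes (24.5%), against 7.92% of the other abundant genes, and its summed FPKM was 607425 against 540941 and 545986 in the other 48 h libraries. The lowest value fell most often in 48 h replicate 2 (10 genes) and 36 h replicate 3 (9 genes). These counts were not made over the other abundant genes, so they cannot be called high or low. Without 48 h replicate 3 the rule gave 55 genes, all 49 among them, and leaving out other single libraries gave 50 to 56. The median ratio of the 49 was 1.65 without 48 h replicate 3 and 1.66 with it. The rule had capped these ratios with that library included, so the 2 medians do not measure its influence. Together the stable abundant genes held 0.518% ± 0.0245 of summed FPKM in the 0 h libraries (SD, n = 3 here and at each later time). Their share was 0.588% ± 0.0337 after 12 h, 0.597% ± 0.00129 after 24 h, 0.558% ± 0.0229 after 36 h and 0.539% ± 0.0360 after 48 h.

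Evenness over the course depended on how libraries were scaled. With FPKM as deposited, the 49 genes had a median log2 difference of 0.00 between 0 h and the mean of the later times, while the median of all 26086 genes at 1 FPKM or more in at least 3 libraries was -0.67. Here and after rescaling, the value for the 49 is the log2 ratio of mean levels. That for all genes is the difference of mean log2(FPKM + 1), so they are not the same measure. After median-of-ratios scaling, which levels the libraries on the median of genes above 0 in all 15, 49 of the 49 genes stood higher at 0 h than at the later times on average, by a median of 0.58 log2 units, against -0.36 for all genes. Only 11 of the 49 then kept a ratio within 1.8, and the rule applied to the rescaled table gave 39 genes, 11 of them shared. Rescaled to TPM (every library brought to the same sum), 42 of the 49 met the rule among 113 genes, and after quantile normalization 37 did among 62. The TPM sum lay above every deposited sum while the level limit stayed the same, so that limit was in effect lower. The 113 genes therefore mix a lower level limit with the scaling and do not measure evenness alone. The ratio does not depend on the common sum, and 42 of the 49 kept it within 1.8 after TPM scaling. The label stable thus holds for FPKM as deposited, and RNA per cell was not measured.

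Light against dark at 24 h is the comparison in which the genes could be tested, since the dark libraries played no part in choosing them. The light libraries did, through the other table. The question is whether illumination moves genes that are even through germination under light. In limma on log2(FPKM + 1), 0 of the 49 genes passed an adjusted p of 0.05 with a difference of at least 2-fold, against 3.15% of all 23059 genes tested and 1.26% of the other 717 abundant genes tested. At an unadjusted p under 0.05 there were 12 genes (24.5%), against 29.3% of all genes and 45.7% of the other abundant genes. Since a missed threshold does not show equal levels, intervals were counted: the 95% interval of the log2 difference lay inside 2-fold in either direction in 42 of the 49 (85.7%), 80.8% of the other abundant genes and 64.1% of all genes. These shares were not tested against each other. Since the light libraries entered the choice of the 49, the spread behind their p-values and intervals is not independent of the rule.

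Without the fold minimum a single gene passed, against 4.78% of all genes and 3.63% of the other abundant genes, and it was the gene with the narrowest range in the time course. Gbi12G2221 had 62.3, 75.3 and 66.3 FPKM in light and 29.5, 41.9 and 39.5 FPKM in the dark. All 3 light libraries lay above all 3 dark ones, with 1169, 1341 and 1197 fragments in light and 492, 737 and 764 in the dark. The means were 67.9 ± 6.66 FPKM in light and 37.0 ± 6.57 FPKM in the dark (SD, n = 3 each), a log2 difference of 0.87 (SE 0.16, 95% interval 0.49 to 1.25, limma adjusted p = 0.0326). Its ratio of highest to lowest over these 6 libraries was 2.55, compared with 1.41 over the 15 libraries of the time course. The call was lost without any of light replicates 1, 2 and 3 (adjusted p = 0.0783, 0.0952 and 0.120) or dark replicates 1 and 2 (0.0632 and 0.0872), and with no filter on low values (0.0640). It held at 0.0210 without dark replicate 3, where 14 of the 49 genes and 4469 of all 22587 tested passed an adjusted p of 0.05.

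**Figure D4:**
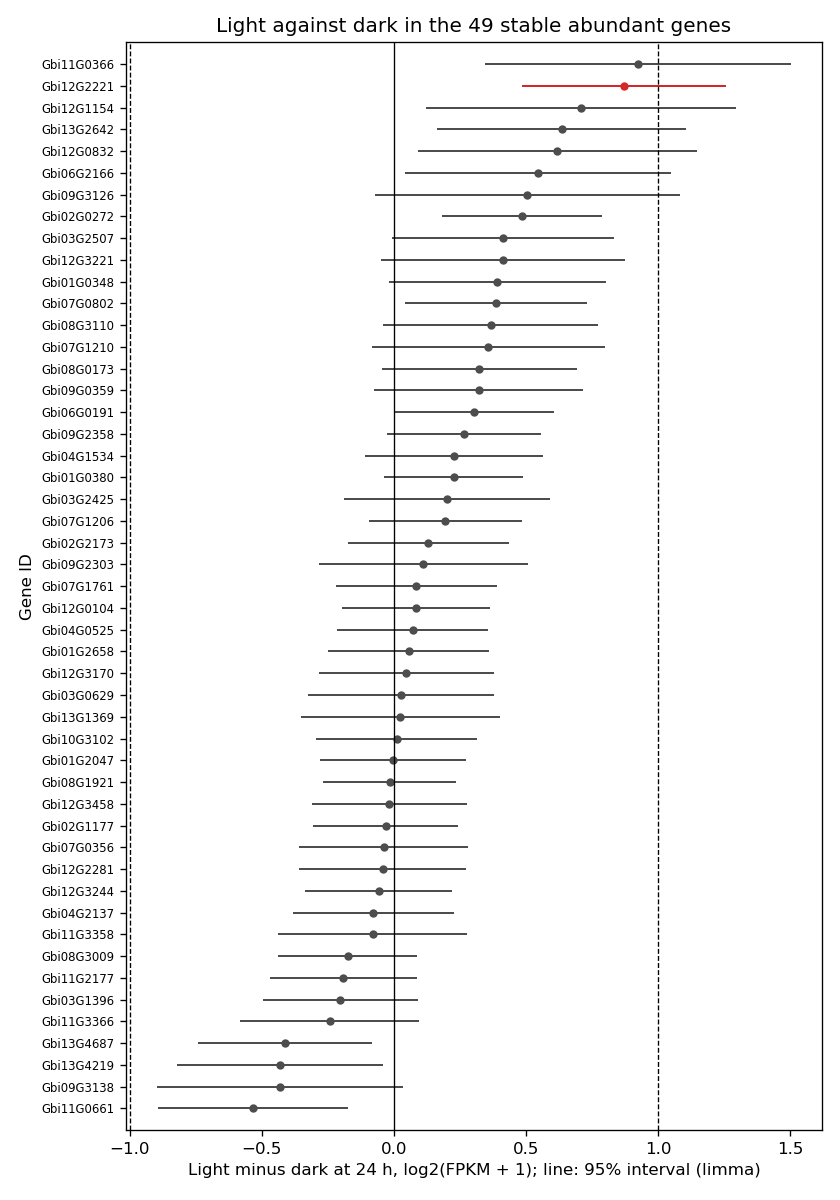
Light minus dark log2 difference at 24 h (x) for each of the 49 stable abundant genes (y, sorted), with the 95% interval from limma; dashed lines mark 2-fold. Gbi12G2221, in red, at 0.87 is the gene past an adjusted p of 0.05, and 42 of the 49 intervals lie inside the dashed lines.

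The 7 genes whose interval reached past 2-fold were all higher in light by their means: Gbi11G0366, Gbi12G2221, Gbi12G1154, Gbi13G2642, Gbi12G0832, Gbi06G2166 and Gbi09G3126. Gbi11G0366 had 133, 169.9 and 139 FPKM in light and 54.2, 75.3 and 109.97 FPKM in the dark, so that the groups did not overlap but the dark libraries spread by 2-fold. Its log2 difference was 0.92 (SE 0.25, lower end of the 95% interval 0.35) and did not pass (limma adjusted p = 0.0707). Without dark replicate 3 it passed, at a log2 difference of 1.18 and an adjusted p of 0.0138, as the sole gene of the 49 past both limits.

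Gbi12G1154 had 43.4, 57.4 and 64.0 FPKM in light and 23.7, 32.4 and 45.8 FPKM in the dark, with light replicate 1 below dark replicate 3 (log2 difference 0.71, 95% interval 0.13 to 1.29, limma adjusted p = 0.117). Gbi13G2642 was nearly fixed in light, at 51.2, 51.5 and 51.2 FPKM, and spread over 24.7, 32.2 and 43.8 FPKM in the dark (log2 difference 0.63, 95% interval 0.17 to 1.10, limma adjusted p = 0.0940). In both genes dark replicate 1 was the lowest library and dark replicate 3 the nearest to light.

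The largest differences in the other direction were smaller. Gbi11G0661 had 205, 202 and 182 FPKM in light and 345, 267 and 248 FPKM in the dark, without overlap (log2 difference -0.53, 95% interval -0.89 to -0.18, limma adjusted p = 0.0795). Gbi13G4219 stood at 93.0, 99.8 and 89.6 FPKM in light and 154, 131 and 102 FPKM in the dark (log2 difference -0.43, limma adjusted p = 0.139). Gbi13G4687 stood at 110.1, 100.2 and 100.6 FPKM in light and 153, 147 and 117 FPKM in the dark (log2 difference -0.41, limma adjusted p = 0.107). In Gbi09G3138 the groups overlapped, at 68.1, 65.5 and 53.7 FPKM in light and 104, 90.1 and 63.6 FPKM in the dark (log2 difference -0.43, limma adjusted p = 0.193). In all 4 genes dark replicate 1 was the highest library and dark replicate 3 the lowest of the dark ones.

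**Figure D5:**
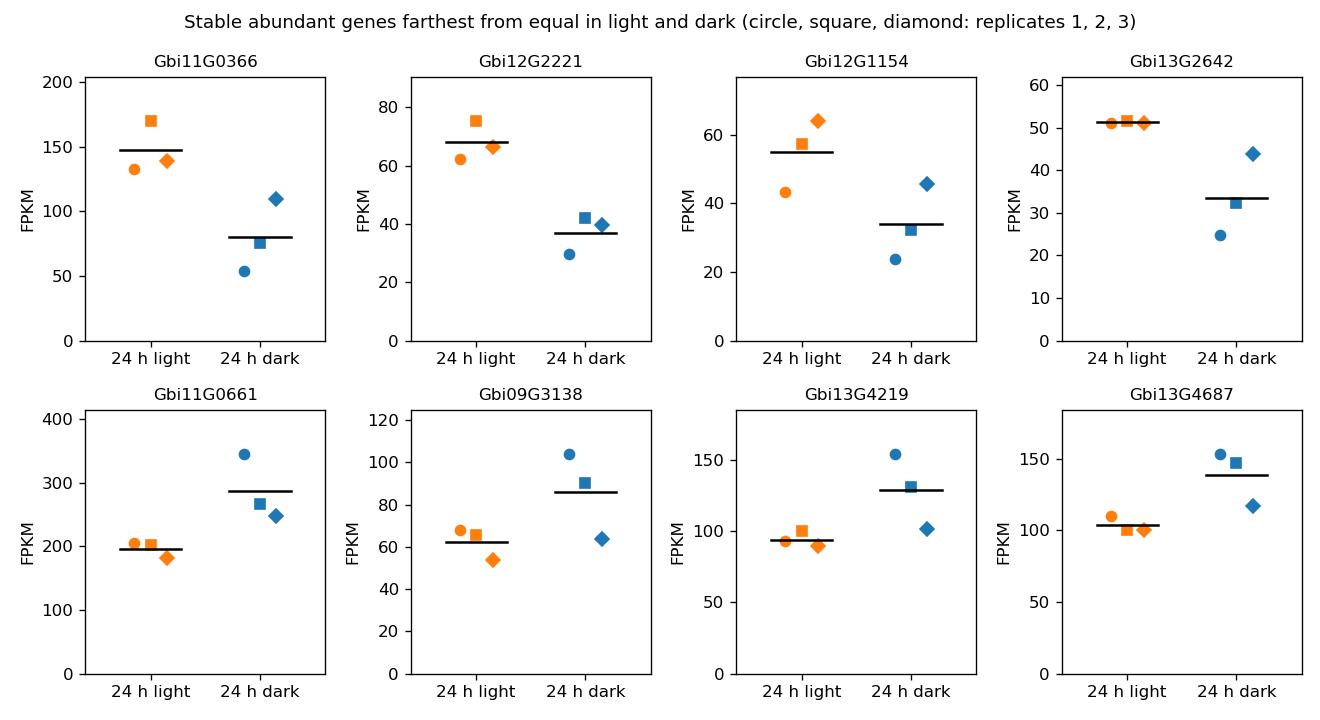
FPKM in the 24 h light (left, orange) and 24 h dark (right, blue) libraries of the 4 stable abundant genes with the largest positive and the 4 with the largest negative light minus dark difference; symbols are replicates, bars means, and axes start at 0. Dark replicate 1 (circle) is the farthest of the dark libraries from the light group in each panel, as for Gbi11G0366 at 54.2 FPKM against 133 to 169.9 FPKM in light.

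Across these genes the dark libraries differed in their distance from light. Dark replicate 1 was the farthest by median and dark replicate 3 the nearest. Dark replicate 1 held the lowest of the 6 values in 26 of the 49 (53.1%), against 39.2% of all genes tested and 20.4% of the other abundant genes. Its median distance from the light mean was 0.32 log2 units, against 0.26 in dark replicate 2 and 0.13 in dark replicate 3. It lay more than 2-fold from the light mean in 6 genes (Gbi11G0366, Gbi12G2221, Gbi12G1154, Gbi12G0832, Gbi13G2642 and Gbi09G3126), where the other dark libraries did so in 0. The distances and the count of 6 were not made over other genes, so they cannot be called particular to these genes. Without dark replicate 1 the interval lay inside 2-fold in 46 of the 49.

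Evenness over the light time course did not carry over to the dark in every gene. Over the 6 light and dark libraries, 37 of the 49 (75.5%) kept a ratio of highest to lowest within 1.8, against 66.3% of the other 732 abundant genes, a difference that was not tested. The ratio had a median of 1.42 and ran from 1.04 in Gbi08G1921 to 3.13 in Gbi11G0366. Within the light libraries alone its median was 1.15 and its highest value 1.47, and within the dark libraries alone 1.23 and 2.11. The light libraries had entered the choice of the genes through the time course and the dark ones had not. The light spread and the shares within 1.8 are therefore not independent of the rule. Gbi12G1154, Gbi12G2221 and Gbi13G2642 were under 30 FPKM in dark replicate 1, and the others kept above it in all 6 libraries. All 49 genes were listed and tested there, whereas 15 of the other 732 were not tested, at under 1 FPKM in more than 3 of the 6 libraries, although they stood at 30 FPKM or more throughout the time course.

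The 4 genes with the narrowest intervals differed little between light and dark. Their time-course ratios, 1.76 to 1.798, lay near the limit of 1.8, so they were not the most even over time. Gbi08G1921 had 76.9, 74.7 and 74.0 FPKM in light and 76.9, 74.6 and 76.8 FPKM in the dark (log2 difference -0.02, 95% interval -0.27 to 0.23), the narrowest interval of the 49. In the time course the same gene was just inside the ratio limit, where 48 h replicates 1 and 2 stood at 34.1 and 44.1 FPKM, whereas the 12 libraries from 0 h to 36 h lay between 49.8 and 61.2 FPKM. Gbi02G1177 had 107, 115 and 98.1 FPKM in light and 108, 106 and 113 FPKM in the dark (log2 difference -0.03, 95% interval -0.30 to 0.24). Gbi01G0380 had 66.7, 68.9 and 73.0 FPKM in light and 58.1, 58.7 and 61.0 FPKM in the dark, a small difference without overlap (log2 difference 0.23, 95% interval -0.03 to 0.48, limma adjusted p = 0.219). Gbi08G3009, the highest of the 49, had 229.9, 244 and 229 FPKM in light and 260.0, 280.1 and 255 FPKM in the dark, also without overlap (log2 difference -0.17, 95% interval -0.43 to 0.08, limma adjusted p = 0.326).

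The direction of the small differences followed the scaling. By their means 32 of the 49 genes (65.3%) were higher in light and 17 lower, with a median log2 difference of 0.09. The median was 0.13 over all genes tested, of which 61.7% were higher in light, and -0.19 over the other abundant genes, of which 30.4% were. After TPM scaling or quantile normalization 41 were higher and 8 lower, and after median-of-ratios scaling 22 were higher and 27 lower. The light and dark libraries did not overlap in 17 genes, 11 of them higher in light (22.4%, against 23.5% of all genes tested) and 6 lower (12.2%, against 11.8%), shares near the background. Among the other abundant genes these shares were 11.4% and 41.4%, a difference that was not tested. The genes held 0.623% ± 0.00479 of summed FPKM in light and 0.548% ± 0.0547 in the dark (SD, n = 3 each).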

How the data were processed

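Per the labels' protocols, total RNA was turned into NEBNext Ultra libraries and read from both ends by Illumina sequencing. The submitters' processing notes list Trimmomatic 0.36, HISAT2 2.0.4 and HTSeq 0.6.0 without parameters. Genome build, annotation and strandedness were not given in the sources used here. Values were FPKM as deposited by the authors in 2 tables; 0 columns of per-sample values were left unused. FPKM scales to the mapped fragments, so it gives relative levels, and overlapping or near-identical genes may share reads.

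The rule on 30 FPKM and a ratio of 1.8 was applied to the 15 time-course columns. Light against dark was fitted with limma 3.58.1 in R 4.3.3 on log2(FPKM + 1), with a mean-variance trend, for all genes at 1 FPKM or more in at least 3 of the 6 libraries, two-sided, with Benjamini-Hochberg adjustment over all of them. Fold changes on this scale understate changes of low genes. The step was tested on simulated data with planted changes larger than any light-dark difference of the members, so that test does not cover differences of their size. Other limits, filters, pseudocounts and scalings (TPM, median-of-ratios, quantile), a replicate block and leaving out each library were tried. The members, lists and tests were chosen with earlier results of these data known. By rule the text names the 6 members of highest and 3 of lowest mean, the 6 of smallest ratio, the 4 (ratio) and 3 (level) on either side of each limit, the 4 with the largest light-dark difference in each direction and the 4 with the narrowest interval; Gbi04G1534, Gbi07G1761, Gbi12G0104, Gbi03G2425, Gbi12G0832 and the near-numbered pairs were named after their values were seen.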

Additional observations from a re-analysis of the deposited data

How the results depend on the processing

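The number of stable abundant genes followed the rule's settings. It was 13 and 81 with ratio limits of 1.6 and 2, 83 and 14 with lowest levels of 20 and 50 FPKM, and 183 and 317 without the 0 h or the 48 h group. It was 213 on group means, which average out the spread between libraries, 113 with TPM, 62 with quantile normalization and 39 with median-of-ratios scaling. With TPM the unchanged level limit was in effect lower, so that count does not show the scaling alone. Leaving out each library gave 50 to 56, with all 49 genes kept each time, since fewer libraries can only widen the selection.

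In light against dark, the count past both limits was 0 under every setting run except 1 without dark replicate 3, so leaving out each library gave 0 to 1, and it was 1 with no fold minimum. Without the fold minimum, leaving out dark replicate 3 gave 14 genes and leaving out any other library 0. The median difference was 0.19 with TPM and -0.0717 with median-of-ratios scaling, where all genes shift too (medians 0.22 and -0.00), and 0.08 to 0.16 without each library. Intervals inside 2-fold numbered 40 to 46 without each library. The share in light was 0.649% when summed over IDs in both tables; without each library it was 0.620% to 0.624% in light and 0.520% to 0.574% in the dark. With the replicate block 0 genes passed both limits and 42 intervals lay inside 2-fold. Gbi12G2221 still passed without the fold minimum (limma adjusted p = 0.0412), so the block changed no call. Deviations of same-numbered light and dark libraries correlated at -0.0912, 0.0996 and 0.0522, and no pairing was seen.

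Of 23 named genes 18 kept their direction in all 14 settings. The exceptions were near 0: Gbi08G1921 was 0.0834 and 0.0236 and Gbi02G1177 0.0684 and 0.0575 with TPM and quantile normalization, Gbi08G3009 0.0906 with quantile normalization, Gbi09G2303 -0.0468 and Gbi02G2173 -0.0255 with median-of-ratios scaling. Without each library Gbi09G2303 ran from -0.0657 (without light replicate 2) to 0.206 and Gbi02G1177 from -0.0865 to 0.0270 (without light replicate 3). Where not stated, the cause was not tested. Depth in the time course is unknown.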

Other observations

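The 49 genes were grouped by the time of their highest mean and read in the light-dark table. Of the 12 genes highest at 48 h, 10 were higher in light than in the dark, with a median log2 difference of 0.28, and Gbi11G0366, Gbi12G2221, Gbi13G2642 and Gbi12G0832 were among them. Of the 15 highest at 12 h, 10 were higher in light (median 0.09), and of the 12 highest at 24 h, 5 were (median -0.01). Of the 7 highest at 0 h, 5 were (median 0.19), and of the 3 highest at 36 h, 2 were (median 0.08). The 24 h light libraries enter both the grouping and the difference. The light minus dark difference was also set against log2 ratios of time means that share no library with it. For 48 h over 12 h, Pearson's r was 0.30 and Spearman's rho 0.22 across the 49 genes. For 0 h over 12 h they were 0.23 and 0.20, and for 36 h over 12 h -0.05 and -0.07. These weak relations are given as a description, and the value for 48 h was not particular to that time.

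Across the 49 genes, a narrower range in the time course went with no narrower range in the light-dark table (Spearman's rho -0.27 and Pearson's r -0.18, as a description). The rule confined their time-course ratios to 1.41 to 1.798, a span that leaves little room for a relation to show. Genes outside the rule were not included. Gbi12G2221, first of the 49 by evenness in the time course, was among the 3 widest by its ratio over the light and dark libraries, and Gbi08G1921, at the ratio limit in the time course, was the most even in the other table.

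The genes were spread over IDs of 12 of the 13 number prefixes. IDs beginning Gbi12 held 9 of the 49 and 59 of the 781 abundant genes, and IDs beginning Gbi05 held 0 of the 49 and 41 of the 781. The files do not say what the prefixes stand for. In 3 pairs the ID numbers lay within 20 of each other: Gbi07G1206 and Gbi07G1210, Gbi09G3126 and Gbi09G3138, and Gbi11G3358 and Gbi11G3366. Their levels correlated at 0.165, -0.217 and 0.0483 over the 15 libraries, and the median over all pairs of the 49 was 0.121. Gbi09G3126 and Gbi09G3138 also differed in opposite directions between light and dark by their means, at 0.50 and -0.43, and neither passed (limma adjusted p = 0.215 and 0.193).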
